A study of Mus musculus with 12 samples.

Results

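The cytosolic ribosomal protein genes were taken as the protein-coding genes whose symbol begins with Rpl or Rps and a number, or with Rplp, or is Rpsa, without the pseudogenes named -ps and without the ribosomal S6 kinases. Of 38293 genes in the count table, 85 carried such a symbol and 83 had at least 10 raw counts in at least 4 of the 12 libraries. The other two were Rpl10l, with 0 counts in every library, and Rpl39l, with 2 to 13 counts. The 83 genes comprise 42 proteins of the large subunit, 31 of the small subunit, the 3 stalk proteins Rplp0, Rplp1 and Rplp2, the 6 paralogs Rpl3l, Rpl7l1, Rpl22l1, Rpl36al, Rps27l and Rps27rt, and Rps19bp1. The last encodes a protein that binds RPS19 and is not itself a ribosomal protein. The genes lie on 19 chromosomes, 4 of them on X. Each had at least 10 counts in 12 of 12 libraries and passed the expression filter, so all 83 stood among the 14770 genes tested.

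Polyadenylated RNA was sequenced from whole left ventricle of healthy C57BL/6J mice that had received 2 intramyocardial injections of 10 µl, with hearts collected on day 3. There were 3 groups of 4 libraries: PBS, the hydrogel Upy-PEG without drug, and Upy-PEG carrying antimiR-195. Every group underwent anesthesia, intubation, opening of the thorax and injection, and no uninjected heart was analysed here. Upy-PEG is a poly(ethylene glycol) hydrogel cross-linked by ureidopyrimidinone groups, and an antimiR is an oligonucleotide complementary to a microRNA. Replicate numbers (PBS 1 to PBS 4 and so on) only follow the order of deposition. The labels name separate samples without saying that each is a separate animal, so p-values measure the spread between these samples, which may be technical.

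Each ribosome joins one copy of nearly every cytosolic ribosomal protein to the ribosomal RNAs, and the proteins are made in roughly matched amounts. Their mRNAs are short, abundant and begin with a C followed by a run of pyrimidines (C or T in the gene), the terminal oligopyrimidine tract, through which the growth kinase mTOR and the RNA-binding protein LARP1 govern their translation and stability. In striated muscle, RPL3L, a paralog of RPL3, takes the place of RPL3 in part of the ribosomes.

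The annotated starts were searched for that tract. RefSeq promoters on GRCm38.p6, from 250 bases before to 50 after the annotated start, were matched by symbol for 63 of the 83 genes, 75 promoters in all. The windows here run from 10 bases before the annotated start through the first 20 transcribed bases. Capitals mark a pyrimidine run that begins with a C at the annotated start. Shown are Rpl35 and Rpl35a, which had the lowest p values in the comparison of the drug with the hydrogel, the stalk gene Rplp2, the near-identical pair Rps27 and Rps27rt, and 4 paralogs without such a run at the annotated start. Rpl35a has 3 annotated starts, of which only the one shown has the run, and Rpl3l has 2, neither with it.
Rpl35, chr2:39005112-39005141, minus strand: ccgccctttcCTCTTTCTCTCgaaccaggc
Rpl35a, chr16:33056472-33056501, plus strand: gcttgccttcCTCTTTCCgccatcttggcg
Rplp2, chr7:141447641-141447670, plus strand: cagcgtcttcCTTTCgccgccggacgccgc
Rps27, chr3:90213629-90213658, minus strand: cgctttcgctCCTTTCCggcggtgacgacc
Rps27rt, chr9:114982720-114982749, minus strand: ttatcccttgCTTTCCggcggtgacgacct
Rpl3l, chr17:24727816-24727845, plus strand: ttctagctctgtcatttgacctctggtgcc
Rpl7l1, chr17:46782637-46782666, minus strand: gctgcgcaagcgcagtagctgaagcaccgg
Rpl36al, chr12:69184048-69184077, minus strand: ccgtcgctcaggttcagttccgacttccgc
Rpl22l1, chr3:28805498-28805527, plus strand: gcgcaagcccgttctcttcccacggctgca

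A C followed by at least 4 pyrimidines at the annotated start was present in 14 of the 63 genes, or 18.7% of their 75 promoters, and in 2.51% of all 32851 promoters of the table. Allowing the run to begin within 10 bases of the annotated start, the shares were 53.3% and 30.7%. The letters TTCCGG on either strand occurred in 48.0% of the ribosomal protein promoters against 14.9% of all, AAGATGG in 16.0% against 6.34%, and GGGCGG in 61.3% against 35.7%. TATAAA, searched on the gene's own strand only, was in 8.0% and 8.32%. A match describes these letters and is no evidence of a bound factor. Windows of Rps27 and Rps27rt shared 19 of 30 bases as 1 run, and 56 of the 83 genes have at least 1 named pseudogene (228 in all). Counts were of uniquely assigned reads, so the values of genes with near-identical copies are uncertain.

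Counts on genes ranged from 22353241 to 30278621 per library. The first principal component of log2 CPM (counts scaled to library size) covered 35.1% of the variance. It placed antimiR-195 2 and antimiR-195 3 at −60.2 and −40.7, with the other libraries from −8.48 to 33.4. The same pair had lower values for longer genes, with log2 CPM sloping by −0.229 and −0.135 for each doubling of length where the other libraries had −0.0415 to 0.122, and more multi-mapped alignments per counted read, 0.921 and 0.893 against 0.579 to 0.749. Fold changes from the antimiR-195 comparisons are therefore given with all libraries first and then without this pair, an alternative chosen with the data in view. Cardiomyocyte markers were the most abundant marker list in every library, and no gene of the 8 marker lists was at 0 in every library.

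The level of the family spanned a 62.7-fold range of mean RPKM (reads per kilobase of gene, scaled to library size), from 13.6 for Rps19bp1 to 849 for Rplp1, with a median of 105. Rplp1, an acidic protein of the stalk that recruits translation factors, was followed by Rps27, Rps15, Rpl8 and Rps12 at mean RPKM values of 500, 474, 433 and 424. Its partners stood at 423 for Rplp0, the base of the stalk, and 87.7 for Rplp2. At the other end, mean RPKM was 17.2 for Rpl7l1, 19.4 for Rpl36al, 20.5 for Rpl27 and 20.5 for Rpl35a. The spread between libraries was wide next to the steps in this order: Rplp1 measured 672 ± 140 RPKM with PBS, 891 ± 39.0 with Upy-PEG and 985 ± 429 with antimiR-195 (SD, n = 4 each), and the ranges of neighbouring genes overlapped. The deposited lengths count all exons of a gene, and in 25 of 77 genes with a principal mRNA they exceeded its length by more than 2-fold (median ratio 1.42, highest 6.79 in Rpl35a). Per kilobase of principal mRNA, Rplp1 remained first and 7 of the 10 highest genes were the same, while Rps21 moved from rank 12 to rank 2 and Rps9 from 35 to 9.

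**Figure D1:**
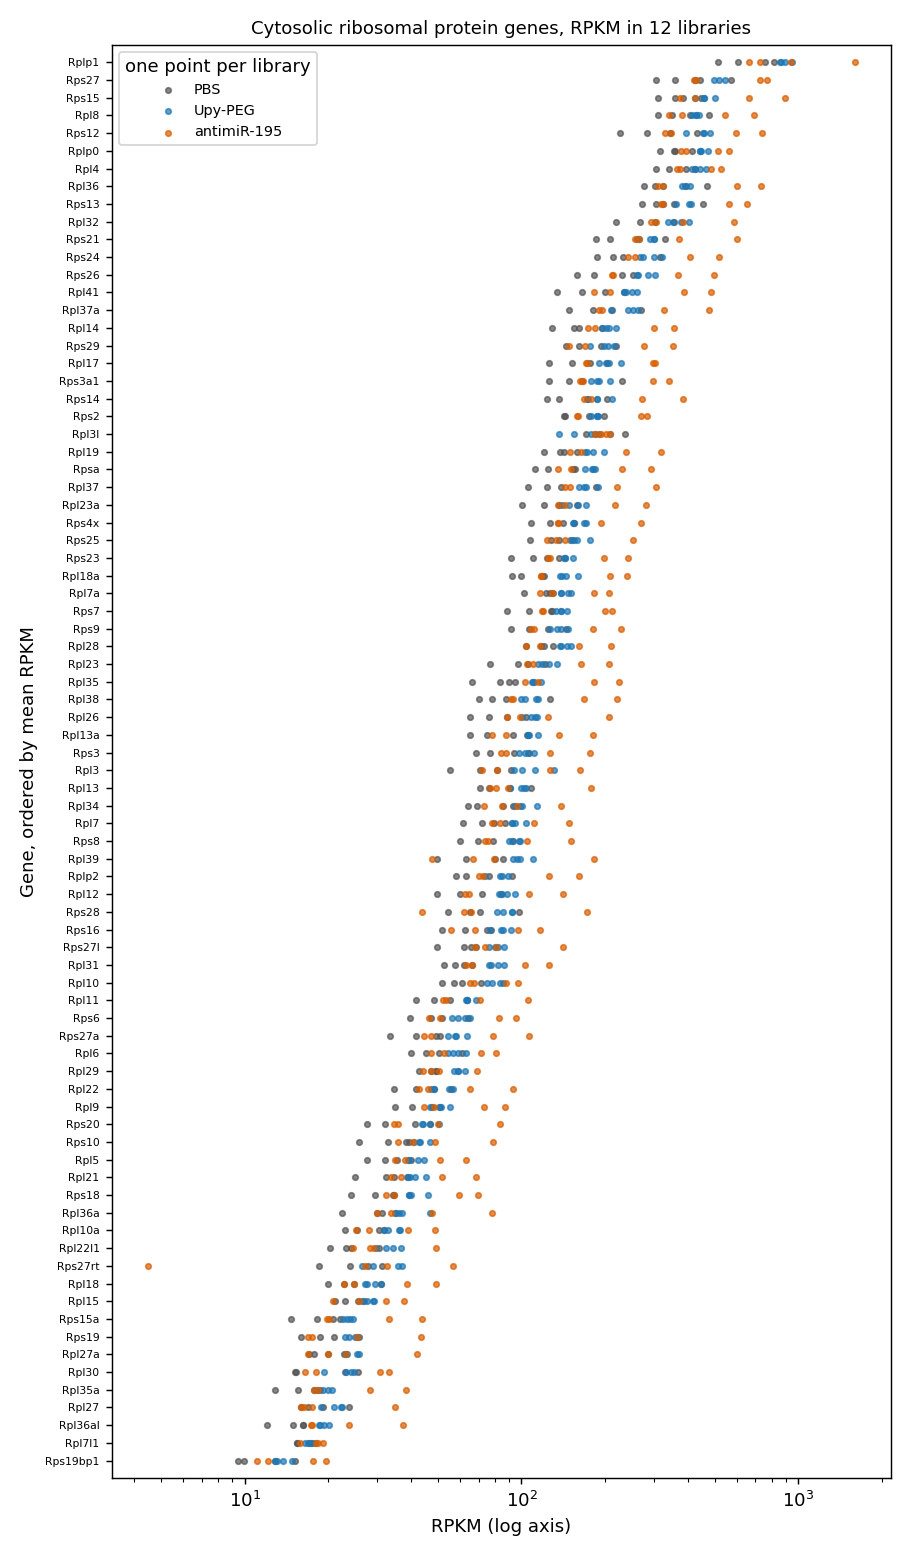
RPKM of 80 of the 83 cytosolic ribosomal protein genes (log axis), 1 point per library coloured by group, genes ordered by mean RPKM. Rplp1 is highest at a mean of 849 and Rps19bp1 lowest at 13.6, and for most genes the 2 highest points are antimiR-195 libraries.

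The family moved together from library to library. Its share of all gene counts was 1.47%, 0.983%, 1.13% and 1.30% in PBS 1 to 4, then 1.43%, 1.58%, 1.46% and 1.49% in Upy-PEG 1 to 4, and 1.21%, 2.45%, 1.87% and 1.28% in antimiR-195 1 to 4. By this share the Upy-PEG libraries lay close together, whereas antimiR-195 held both the 2 highest libraries and 2 inside the PBS range. Group means were 1.22% ± 0.211 with PBS, 1.49% ± 0.0655 with Upy-PEG and 1.70% ± 0.582 with antimiR-195 (SD, n = 4 each). In this bulk tissue, more cells rich in ribosomal protein mRNA and more such mRNA per cell cannot be told apart. The 2 highest libraries, antimiR-195 2 and 3, were also those with slopes on gene length of −0.229 and −0.135. The part of that slope in these shares was not tested.

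Gene by gene the same libraries were highest and lowest, in CPM that also carry a scaling factor for each library. That factor was highest in Upy-PEG 1, at 1.14. Of the 83 genes, 79 were highest of 12 libraries in antimiR-195 2, 74 had antimiR-195 3 among their 2 highest libraries, and 72 were lowest in PBS 2. The median of the 83 log2 deviations from each gene's own mean was 0.02, −0.48, −0.33 and −0.14 in PBS 1 to 4, −0.17, 0.06, 0.01 and 0.03 in Upy-PEG 1 to 4, and −0.13, 0.87, 0.54 and −0.18 in antimiR-195 1 to 4. antimiR-195 1 and 4 thus lay at about the level of PBS 4 and Upy-PEG 1. On this scale Upy-PEG 1 stood below the other Upy-PEG libraries, though by share of counts it lay close to them.

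**Figure D2:**
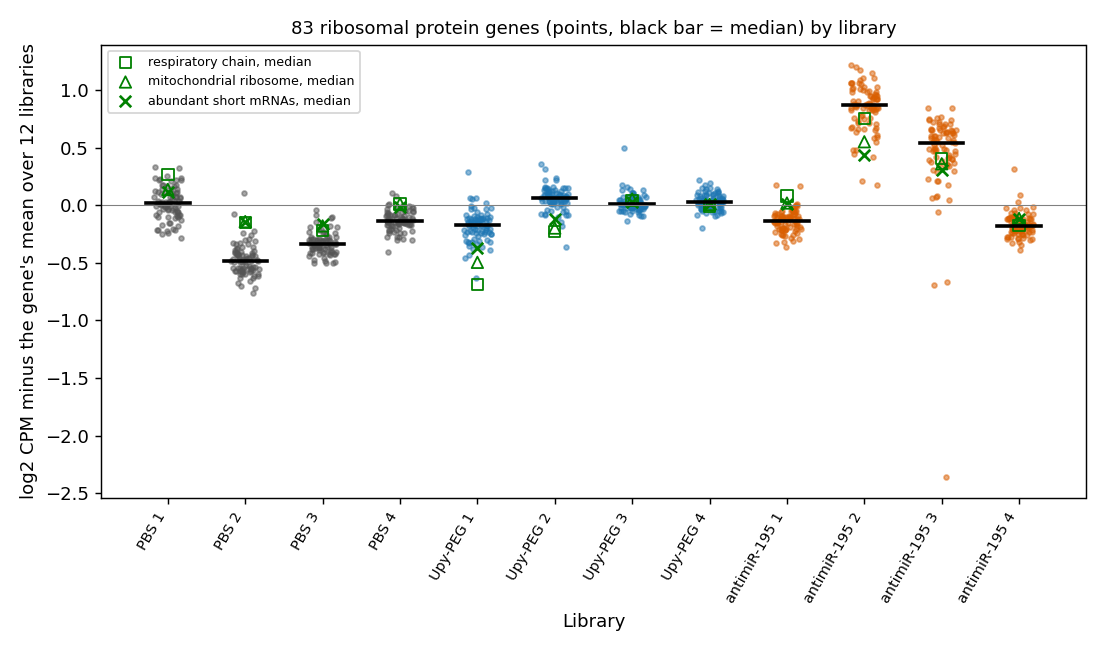
Log2 CPM of each of the 83 genes minus its mean over 12 libraries, 1 point per gene, with the median as a black bar and the medians of 3 other gene lists in green. The bars of antimiR-195 2 and 3, at 0.87 and 0.54, are the highest, and PBS 2, at −0.48, the lowest.

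Other families of short mRNAs shared part of this order. The median deviation of 86 nuclear genes of the respiratory chain and ATP synthase, which power the heartbeat, was 0.76 in antimiR-195 2 and 0.41 in antimiR-195 3, and that of mitochondrial ribosomal proteins was 0.55 and 0.36. Upy-PEG 1 parted the families: the respiratory chain stood at −0.69 there and the ribosomal protein genes at −0.17, a gap of 0.52 log2. In PBS the ribosomal protein genes lay below the respiratory chain in each library, with differences of −0.25, −0.33, −0.11 and −0.15. With Upy-PEG the differences were 0.52, 0.29, −0.03 and 0.04, all above the PBS values. With antimiR-195 they were −0.21, 0.11, 0.14 and −0.01, so antimiR-195 1 lay within the PBS range and the rest above it.

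Upy-PEG was set against PBS to show what the gel adds beyond injection alone. The median log2 fold change of the 83 genes was 0.21, a fold of 1.15, with 80 higher and only Rpl3l, Rpl7l1 and Rpl36 lower. Over all 14770 genes 44.7% were higher and the median was −0.03. Abundant genes of other function with a short principal mRNA, not matched to the family in length, had −0.08, with 244 of 725 higher. Respiratory chain genes had −0.18, with 5 of 86 higher, mitochondrial ribosomal proteins −0.11, with 10 of 80, and proteasome subunits −0.03, with 16 of 39. Large subunit genes had a median of 0.22, small subunit genes 0.20 and stalk genes 0.22, with 41 of 42, 31 of 31 and 3 of 3 higher. edgeR's quasi-likelihood test called 0 members at an adjusted p of 0.05, against 0% of all genes, and 1 member was higher at an unadjusted p under 0.05, against 9.33% of all genes. At that p 0 members were lower, against 3.83% of all genes. DESeq2 called 0, against 3.13% of all genes called higher, and limma voom with sample weights 2, Rpl10 and Rpl22l1, against 4.75% of all genes called higher by that tool.

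Rpl10, whose protein joins the large subunit as one of its last steps of assembly, had the lowest p. It measured 144, 111, 117 and 125 CPM in PBS 1 to 4 and 151, 164, 153 and 157 in Upy-PEG 1 to 4. The groups did not overlap, as was the case for 11 of the 83 genes with higher values and for 5.91% of all genes, and for 0 members and 3.77% of all genes with lower values. Its log2 fold change was 0.32 ± 0.139 (SE, 4 libraries a group, adjusted p = 0.326 by edgeR). Rpl3, which lies near the peptidyl transferase centre, reached 0.44 ± 0.225 (edgeR adjusted p = 0.430) and also did not overlap. Rpl31 stood at 0.34 and Rpl29 at 0.23, again without overlap, and Rpl22l1 at 0.34 with overlap, none of them called. Rpsa, the laminin receptor homolog of the small subunit, measured 288, 221, 233 and 287 CPM with PBS and 294, 320, 314 and 329 with Upy-PEG. Its groups were separate by a narrow margin, and the log2 fold change was 0.29 ± 0.209 (adjusted p = 0.629 by edgeR). Rps27a, which encodes ubiquitin fused to a small subunit protein, had 0.32 ± 0.236 and no overlap (edgeR adjusted p = 0.634).

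The median depended on PBS 2, the lowest library: without it the value was 0.13, and without PBS 1 it was 0.31. The spread used in this test is shared by the 3 groups. In the fit of the 8 libraries compared, the median was 0.22 and 0 members were called, against 1.18% of all genes. At an unadjusted p under 0.05, 31 of 83 genes were higher and 0 lower, against 11.2% and 5.39% of all genes. Markers of other cells moved in the same comparison: the summed level of 10 macrophage markers was 652 to 1003 CPM with PBS and 1223 to 1781 with Upy-PEG, that of 8 dividing cell markers 27.1 to 57.9 and 68.6 to 146, and that of 10 cardiomyocyte markers 79826 to 89191 and 58676 to 76685, none overlapping. All 10, 8 and 10 genes of these lists had counts. Sums overlapped for the fibroblast and matrix (8 of 8 genes higher with Upy-PEG), endothelial (0 of 6), erythroid (0 of 5) and atrial markers (0 of 3). Skeletal muscle markers summed to 3.73 to 4.95 and 5.32 to 7.96 CPM, without overlap. The part of all these markers in the ribosomal protein values was not tested.

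Paralogs allow a reading within each library, since the ratio of 2 genes does not depend on library scaling. The ratio can still depend on the mix of cells, as Rpl3l is a gene of striated muscle. In this bulk tissue a change of the ratio within cells and a change in that mix cannot be told apart. Rpl3l measured 237, 190, 171 and 184 RPKM in PBS 1 to 4, 137, 155, 209 and 179 in Upy-PEG 1 to 4, and 194, 202, 208 and 184 in antimiR-195 1 to 4. Rpl3 measured 81.8, 55.1, 70.7 and 91.5 RPKM in PBS, 132, 111, 93.7 and 100 in Upy-PEG, and 72.0, 163, 127 and 81.9 in antimiR-195. The muscle paralog exceeded Rpl3 in all 12 libraries, by 3.46-fold in PBS 2 and by only 1.04-fold in Upy-PEG 1. The log2 ratio was 1.40 ± 0.336 with PBS, 0.63 ± 0.473 with Upy-PEG and 0.91 ± 0.492 with antimiR-195 (SD, n = 4 each). The groups overlapped, as Upy-PEG 3 at 1.16 lay inside the PBS range of 1.01 to 1.79. The difference of −0.77 between Upy-PEG and PBS had a 2-sided exact permutation p of 0.0571, and of 0.286 after Benjamini-Hochberg adjustment over 15 tests on 5 pairs. Those of antimiR-195 were 0.28 against Upy-PEG and −0.49 against PBS (exact permutation p = 0.457 and 0.171, adjusted 0.857 and 0.500). Without antimiR-195 2 and 3 they were 0.67 and −0.10. Rpl3l had the most negative fold change of the 83 genes with Upy-PEG, −0.29 ± 0.157 (edgeR adjusted p = 0.473), and −0.17 without Upy-PEG 1. Its neighbour Rps2, 5890 bases upstream on chromosome 17, stood at 0.08.

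**Figure D3:**
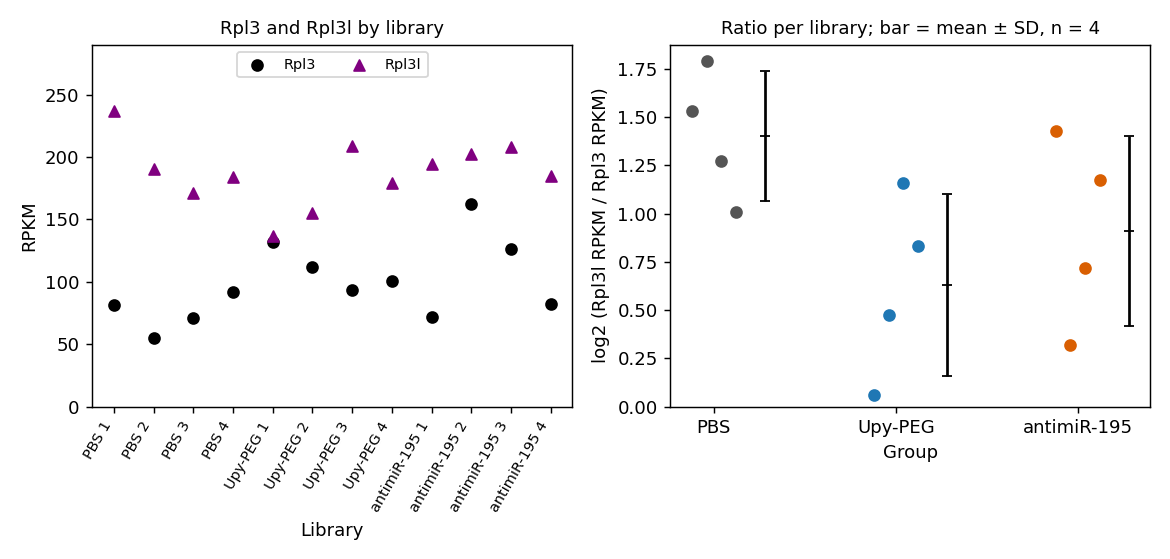
RPKM of Rpl3 and Rpl3l in each of 12 libraries (left) and the log2 ratio of Rpl3l to Rpl3 by group with mean and SD, n = 4 (right). The symbols nearly meet in Upy-PEG 1, where the ratio is 1.04, and the ratio is highest in PBS 2 at 3.46.

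Other pairs gave smaller differences. Rpl22l1 to Rpl22 had log2 ratios of −0.87, −0.76, −0.83 and −0.99 with PBS and −0.58, −0.62, −0.65 and −0.68 with Upy-PEG, all above PBS. The difference of 0.23 had the smallest p that 4 against 4 libraries allow, 0.0286 (2-sided exact permutation test, adjusted p = 0.214). Rpl7l1, a homolog of the large subunit protein RPL7, stood to Rpl7 at −2.32, −1.99, −2.22 and −2.22 with PBS and −2.36, −2.57, −2.45 and −2.52 with Upy-PEG, all below PBS. Its difference of −0.29 had the same p of 0.0286 (exact permutation test, adjusted p = 0.214). For Rps27l, a p53-inducible relative of Rps27, and Rpl36al, a relative of the X-linked Rpl36a, the differences were 0.14 and −0.01 with overlapping groups (exact permutation p = 0.40 and 0.83). The pair Rpl39l and Rpl39 gave no ratio, because Rpl39l had too few counts.

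The comparison of antimiR-195 in Upy-PEG with Upy-PEG alone sets the gel with the drug against the gel without it. No group carried a control oligonucleotide. The median log2 fold change of the family was 0.34, a fold of 1.27, with 82 of 83 genes higher and Rpl29 at −0.02, where 49.2% of all genes were higher. edgeR and voom called 0 members at an adjusted p of 0.05, against 0% of all genes for both, and DESeq2 also called 0, against 0.00678% called higher. At an unadjusted p under 0.05 there were 14 members in edgeR, all higher, against 6.67% of all genes higher and 6.4% lower. In a fit of only the 8 libraries compared, 3 were higher and 0 lower at that p, against 4.4% and 5.43% of all genes. Rpl35, a protein at the exit of the peptide tunnel, measured 119, 137, 137 and 133 CPM in Upy-PEG 1 to 4 and 137, 289, 248 and 141 in antimiR-195 1 to 4. All the antimiR-195 values were higher, yet antimiR-195 1 exceeded the highest Upy-PEG library by less than 1 CPM. Its log2 fold change was 0.63 ± 0.21 (SE, 4 libraries a group, adjusted p = 0.364 by edgeR). It was 0.41 without antimiR-195 2 and 0.08 without both antimiR-195 2 and 3. Rpl7l1, at 41.1, 42.3, 43.6 and 42.2 CPM against 44.4, 51.8, 51.8 and 47.6, was the only other member without overlap (1.94% of all genes higher and 2.46% lower), with 0.21 ± 0.0841 (edgeR adjusted p = 0.364), and 0.12 without the pair. Rpl35a stood at 0.55 and Rpl9 at 0.47, both with overlapping groups. Without antimiR-195 2 these were 0.29 and 0.27, and without the pair 0.01 and −0.01.

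Without antimiR-195 2 and 3 the sign of the median turned. It was −0.13 with 5 of 83 genes higher, where 7762 of 14770 genes were, and 0 members and 0 of all genes were called. Rpl29 then stood at −0.25. Leaving out only antimiR-195 2 gave 0.13, only antimiR-195 3 0.27, and leaving out antimiR-195 1 or 4 gave 0.46 and 0.48. With each library's slope on gene length as a covariate the median was −0.02, with 31 of 83 higher, and that of all genes was 0.01. Respiratory chain genes had a median of 0.49 in this comparison, with 86 of 86 higher, mitochondrial ribosomal proteins 0.37, with 80 of 80, and proteasome subunits 0.28, with 39 of 39. Without the pair these medians were 0.15, with 82 of 86 higher, 0.12, with 69 of 80, and 0.03, with 24 of 39. Uqcrb, a subunit of complex III, and Ndufa11b each stood at 0.65 and Mrps21 at 0.63, and without the pair at 0.31, 0.43 and 0.20. Abundant genes of other function with a principal mRNA of 393 to 2162 bases had 0.27, with 657 of 725 higher, and 0.05 without the pair, with 471 higher. Their median principal mRNA, 1442 bases, was longer than the 887 of the family, so length was not matched.

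Markers of other cells also differed between the drug and the gel alone. The 5 erythroid markers were all higher, with a median log2 fold change of 1.03, and summed to 547 to 1314 CPM with antimiR-195 against 253 to 550 with Upy-PEG. With PBS they summed to 480 to 1456 CPM. Against PBS, all 5 were lower with Upy-PEG (median −0.97), and 3 of 5 were higher with antimiR-195 (median 0.08). Between the drug and the gel alone, the 8 dividing cell markers were all lower (median −0.75, 37.0 to 71.7 against 68.6 to 146 CPM). So were the 10 macrophage markers (median −0.30, 857 to 1725 against 1223 to 1781 CPM). Of 8 fibroblast and matrix markers 6 were lower, with a median of −0.51 and sums of 2690 to 4510 against 3896 to 8302 CPM. Without the pair the medians of these lists were 0.46, −1.09, −0.64 and −0.69. Of 10 cardiomyocyte markers 8 were higher (median 0.19), and 10 without the pair (0.25). Their sums, 77915.2 to 83862.5 CPM with antimiR-195 and 58676.4 to 76685.3 with Upy-PEG, did not overlap. Of 6 endothelial markers 4 were higher (median 0.03). The part of all these markers in the ribosomal protein values was not tested.

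Against PBS, the comparison of hydrogel and drug together, the median was 0.54, a fold of 1.46, and 83 of 83 genes were higher, where 50.8% of all genes were. This comparison shares its libraries with the 2 above. At an unadjusted p under 0.05 there were 64 members, all higher, against 8.65% of all genes higher and 7.89% lower. In a fit of only the 8 libraries compared, 44 were higher and 0 lower at that p, against 6.73% and 5.87% of all genes. At an adjusted p of 0.05 edgeR and voom called 0 (0% of all genes higher for both). DESeq2 called 1, Rpl35, against 0.465% of genes called higher. Rpl35 measured 116, 86.5, 104 and 112 CPM with PBS, below every antimiR-195 value given above, with a log2 fold change of 0.96 ± 0.211 (SE, 4 libraries a group, adjusted p = 0.253 by edgeR), and 0.41 without antimiR-195 2 and 3. Rpl36al measured 21.7, 17.2, 20.3 and 22.02 CPM with PBS and 25.4, 52.5, 35.3 and 23.3 with antimiR-195. Its groups did not overlap, as for 5 of the 83 genes and 2.74% of all genes with higher values (0 and 3.32% with lower), and its log2 fold change was 0.75 ± 0.204 (edgeR adjusted p = 0.253). It was 0.46 without antimiR-195 2 and 0.27 without the pair. Among the others were Rpl19 at 0.69 and Rps27l at 0.62. Rpl14, at 0.73, overlapped. Without the pair these stood at 0.20, 0.24 and 0.20, and Rpl19 at 0.46 without antimiR-195 2. The stalk genes Rplp0, Rplp1 and Rplp2 had 0.41, 0.61 and 0.63, and Rpsa and Rps27a 0.62 and 0.72, each with overlapping groups. Without the pair the stalk genes had 0.13, 0.09 and 0.02, and Rpsa and Rps27a 0.10 each.

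This median too rested on the same pair of libraries. Without antimiR-195 2 and 3 it was 0.09, with 59 of 83 genes higher, where 7225 of 14770 genes were. In that fit 2 members had an unadjusted p under 0.05, against 2.2% of all genes higher at that p. The median was 0.32 without antimiR-195 2 alone, where 31 genes reached that p, against 3.68% of all genes higher. With the length covariate the median was 0.10. Respiratory chain genes had 0.33 and the 725 abundant short genes 0.23, and without the pair −0.03 and −0.01. The proteasome subunit genes Psma4 and Psmb1 stood at 0.40 and 0.49, and Mrps36-ps1, which the symbol pattern for mitochondrial ribosomal proteins also took in, at 0.77. Without the pair they were at 0.10, 0.05 and 0.83, and Psmb1 at 0.30 without antimiR-195 2. Macrophage markers summed to 857 to 1725 CPM with antimiR-195, above PBS in 3 of 4 libraries. The highest, 1725, was in antimiR-195 2, where atrial markers (Sln, Myl7, Myl4) also reached 75.7 CPM against 6.41 to 36.7 in the other 11 libraries. Their part was not tested.

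**Figure D4:**
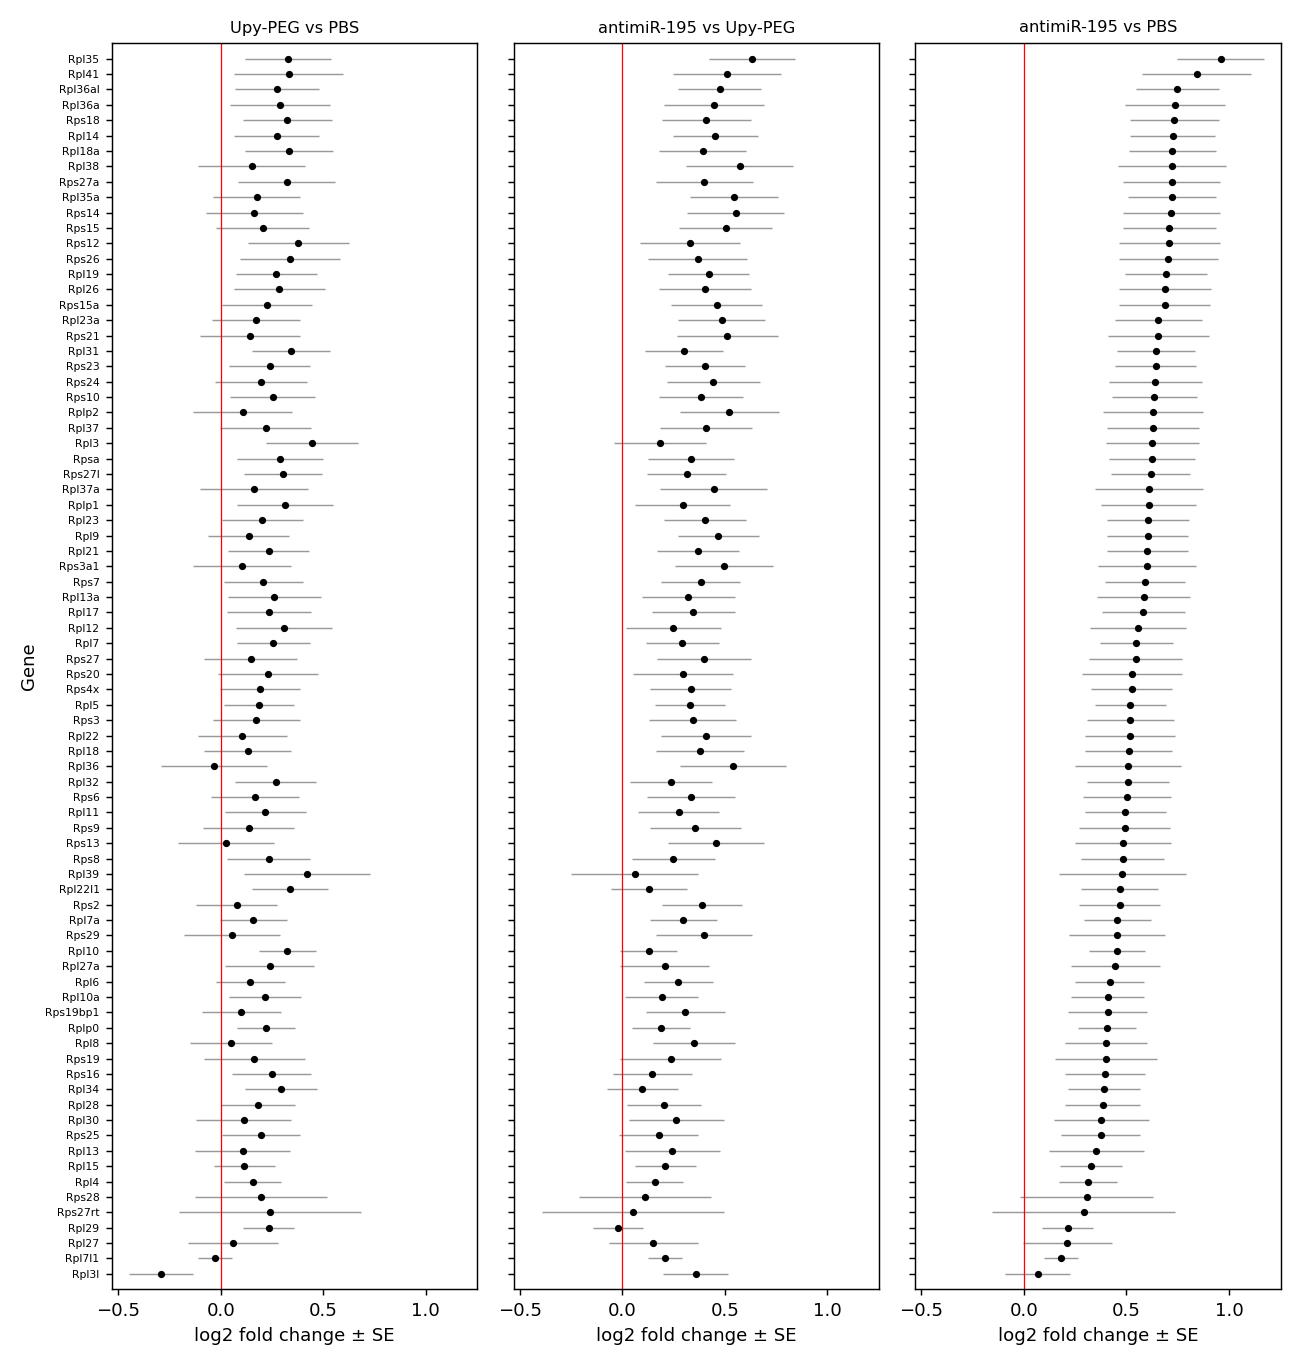
Log2 fold change ± SE from edgeR for 80 of the 83 genes in the 3 comparisons, ordered by the comparison of antimiR-195 with PBS, with a red line at 0. Rpl35 is at the top at 0.96 and Rpl3l at the bottom at 0.07, and 3, 1 and 0 points lie left of the line in the panels from left to right.

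Other genes of the translation system were less uniform. Of 24 other genes whose mRNA starts with a pyrimidine tract, 16 were higher with Upy-PEG than with PBS (median log2 fold change 0.08) and 19 with antimiR-195 than with PBS (0.31), and 0 were called in either by edgeR. Without antimiR-195 2 and 3, 16 were higher with the drug than with PBS (0.02). Among them Eef1a1, the main elongation factor, stood at 0.53 ± 0.178 with Upy-PEG (edgeR adjusted p = 0.201) and Eif3e, an initiation factor subunit, at 0.41 with antimiR-195 (0.26 without the pair). Eif1a, which takes part in start codon scanning, had 0.46 ± 0.124 with Upy-PEG (edgeR adjusted p = 0.115), and DESeq2 and voom called it. The inhibitory kinase of elongation, Eef2k, stood at −0.45 with antimiR-195 against PBS, and at −0.38 without the pair. Of 34 ribosome biogenesis factors, 10 were higher with Upy-PEG (median −0.07) and 19 with antimiR-195 (0.04), or 24 without the pair (0.06). Fbl, which methylates ribosomal RNA, had 0.55 and Polr1a, the largest subunit of RNA polymerase I, −0.47 in antimiR-195 against PBS. Fbl measured 9.09, 16.2, 12.4 and 8.71 CPM in antimiR-195 1 to 4 and Polr1a 46.1, 32.3, 39.0 and 54.7, so the highest Fbl and the lowest Polr1a values of the group lay in the pair. Without the pair the fold changes were 0.18 and −0.23, and Fbl stood at 0.34 without antimiR-195 2. Among 18 regulators of these mRNAs, Mtor had −0.48 and its partner Rptor −0.54 there (edgeR adjusted p = 0.253 for both), and 8 of 18 were higher. Mtor measured 54.8, 35.9, 42.0 and 58.4 CPM in antimiR-195 1 to 4 and Rptor 39.9, 20.96, 28.3 and 41.3, again lowest in the pair. Without it the fold changes were −0.23 and −0.22, and 6 of 18 were higher.

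The ribosomal proteins Rack1 and Fau, which carry other symbols, were read beside the family. Rack1, a scaffold on the small subunit, had a mean RPKM of 74.9 and log2 fold changes of 0.22 with Upy-PEG and 0.41 with antimiR-195 against PBS. Fau, which encodes the small subunit protein eS30 as a fusion, had 161 RPKM and 0.18 and 0.72. Without antimiR-195 2 and 3, the values against PBS were 0.02 for Rack1 and 0.06 for Fau.

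Within the family, 55 of 83 genes stayed within 0.25 log2 of the family's median in all 12 libraries, and 69 in the 10 libraries other than antimiR-195 2 and 3. The 14 outside that limit in those 10 libraries include Rpl3, Rpl3l, Rpl7l1, Rpl29, Rpl31, Rpl35 and Rplp0. In antimiR-195 2, Rpl3l lay at −0.69 and Rpl7l1 at −0.65 relative to the median, so both took little part in the general elevation there. In antimiR-195 3, Rps27rt lay at −2.90, Rps28 at −1.24 and Rpl39 at −1.21. Rps27rt measured 1.66 CPM in antimiR-195 3 and 6.66 to 20.1 in the other libraries, while Rps27, whose start it nearly shares, was at 202 there, its second highest value. Rps28 measured 69.9 and Rpl39 74.5 CPM in that library, each the lowest of 12, after 263 and 272 in antimiR-195 2, each the highest. These genes were singled out after their values were seen. Of 16 ribosomal protein copies named -ps with at least 1000 summed counts, 10 were lowest in antimiR-195 3 and 15 highest in antimiR-195 2. Such copies amounted to 0.777% of the family's counts in antimiR-195 3 and 1.40% to 1.85% in the others. Whether read assignment differed in that library was not tested.

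**Figure D5:**
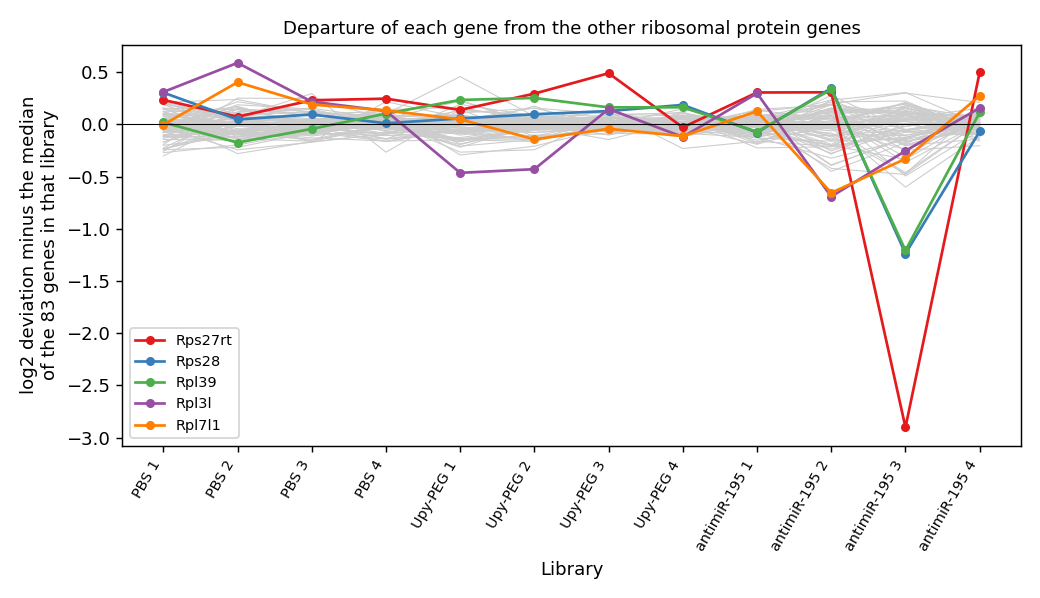
Log2 deviation of each of the 83 genes minus the median of the family in the same library, 1 line per gene, with 5 genes in colour. Rps27rt drops to −2.90, and Rps28 and Rpl39 to −1.24 and −1.21, in antimiR-195 3, and Rpl3l and Rpl7l1 lie lowest in antimiR-195 2.

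The start sequence was set beside the fold changes as a description. The 14 genes with the pyrimidine run at the annotated start had median log2 fold changes of 0.18 with Upy-PEG against PBS and 0.65 with antimiR-195 against PBS, and the 49 without it 0.20 and 0.52. Without antimiR-195 2 and 3 the latter comparison gave 0.12 and 0.06.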

How the data were processed

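RNA of 12 mouse left ventricle libraries was made into stranded TruSeq libraries, per the labels. STAR, HTSeq, DESeq and GRCm38 are named in the submitters' processing notes; versions are not given in the sources used here. The authors deposited raw read counts per gene and a table of RPKM, whose length equals count divided by RPKM. The deposited count table equalled the single-library files in all 459516 values compared. HTSeq's special categories stayed out (reads on no gene were 6.25% to 8.77% of unique reads). GENCODE M21 symbols covered 36345 genes and 99.86% of counts.

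Counts were tested with edgeR 4.0.16 (R 4.3.3, limma 3.58.1): filterByExpr by group, TMM, glmQLFit and glmQLFTest on 12 libraries, Benjamini-Hochberg over all genes at 0.05. The test was also run on simulated counts with changes larger than the family's medians and no outlying libraries. That run does not cover changes of the size of those medians. CPM are TMM-scaled, and log2 CPM deviations use a prior count of 2. Paralog ratios used RPKM without a pseudocount and a 2-sided exact permutation test. Lists were picked by symbol and described without a test. Alternatives were other scalings, filters, DESeq2 1.42.0, limma voom, thresholds, libraries left out and gene length slopes. The members and lists were chosen with earlier results of these data known. A rule named called members, otherwise 5 per sign and comparison by lowest p, the 5 highest and lowest by RPKM, paralog pairs, stalk genes, Rpsa and Rps27a, ribosomal proteins outside the symbols, and in other lists the 2 with the lowest p. Some genes that the rule names are not reported here. The other names were added after values were seen. Samples were grouped by their labelled vehicle and drug.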

Additional observations from a re-analysis of the deposited data

Results flagged for a closer look

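In 114 groups of 4 libraries examined, 6 values stood so far from the rest that the gap passed Dixon's critical value for 4 samples, where chance gives about 1 in 20 groups. Pseudogenes of ribosomal proteins took 0.0375% of gene counts in antimiR-195 2 and 0.0138% to 0.0167% in the rest of that group. Rpl27, a large subunit protein gene, measured 55.9 CPM in antimiR-195 2 and 24.9 to 29.5 in the rest of that group. In Upy-PEG 1 the low values were Rpl14 at 160.3 CPM (188 to 192 in the rest of the group), Rplp0 at 641 (718 to 731) and Rps27l at 54.5 (64.8 to 65.6). The log2 ratio of Rpl36al to Rpl36a was −1.21 in Upy-PEG 2 and −0.94 to −0.92 in the rest of its group.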

How the results depend on the processing

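No paired analysis was possible because replicate numbers follow only the order of deposition. Medians of the family kept their sign and moved by less than 0.329, the SD between libraries, under other scalings, filters and tools and with any 1 library left out. That SD is a wide limit, above the median of 0.208 for Upy-PEG against PBS and near the 0.344 for antimiR-195 against Upy-PEG. Over those single omissions the medians ran from 0.130 to 0.306 for Upy-PEG against PBS, 0.128 to 0.482 for antimiR-195 against Upy-PEG and 0.322 to 0.681 for antimiR-195 against PBS. For both antimiR-195 comparisons, without antimiR-195 2 and 3 they were −0.129 and 0.0878, and with the length slope as a covariate −0.0187 and 0.0996. By voom the same pair of medians was 0.0493 and 0.345. Library size alone put the median of all genes at 0.073 for Upy-PEG against PBS and −0.156 for antimiR-195 against Upy-PEG, and gave family medians of 0.304 and 0.190. Members called numbered 2 by voom with Upy-PEG against PBS and 1 by DESeq2 with antimiR-195 against PBS, and 0 otherwise. At an adjusted p of 0.10 the main fit also called 0, against 1% of all genes higher for Upy-PEG against PBS. In that comparison some edgeR alternatives brought members under 0.10. The lowest adjusted p of a member was 0.0509 with the length covariate, 0.0621 without antimiR-195 2 and 3, and 0.0822 in the 8 libraries compared. The ratio of Rpl3l to Rpl3 ran from −0.947 to −0.581, 0.0876 to 0.476 and −0.667 to −0.296 in the 3 comparisons with 1 library left out. Signs turned for values near 0: with Upy-PEG, Rpl7l1 became 0.0718 under library size alone, and Rpl36 became 0.0557 under library size alone, 0.106 by voom and ran from −0.125 to 0.104 with 1 library left out (0.104 without PBS 1, 0.00889 without PBS 4, 0.0646 without Upy-PEG 1). For antimiR-195 against Upy-PEG, Rpl9 became −0.0115 without antimiR-195 2 and 3, and Rpl29 ran from −0.180 to 0.0512 (0.0317 without antimiR-195 1, 0.0512 without antimiR-195 4). The cause was not tested. Rpl39l is limited by low counts.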
